A study of Mus musculus with 32 samples.

Results

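The step from 4 h to 8 h of *Gata6* induction was described in mouse embryonic stem (mES) cells by bulk RNA-seq, as 4 samples taken at 8 h against 4 samples taken at 4 h, chosen by their titles. These are 8 of the 32 samples of a time course that ran from 0 h to 96 h after the addition of doxycycline (Dox), with 4 samples per time point. All samples came from 1 line of KH2 mES cells that carries 1 copy of a *transgene*, in which a TET-responsive element drives GATA6-FLAG on one side and the fluorescent protein DsRed2 on the other. At 0 h the cells were in medium with LIF and inhibitors of MEK and GSK3. Both the 4 h group and the 8 h group had been moved to serum-containing medium with LIF and Dox at 1 µg/ml and stayed in it until harvest, so medium and Dox were shared by the groups and only the hours differed. The hours since Dox and the hours since the change of medium are the same, and their parts in a difference cannot be told apart; cells kept in serum without Dox were not analysed here. The cells were not sorted. In such bulk samples fewer cells of a type and less RNA per cell cannot be told apart.

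GATA6 is the zinc finger transcription factor that directs cells of the inner cell mass of the blastocyst towards the primitive endoderm (PrE), the layer that gives rise to visceral and parietal endoderm, while NANOG and SOX2 hold the alternative epiblast (Epi) state that mES cells resemble. PrE cells switch on GATA4, SOX17 and SOX7 after GATA6, carry the PDGF receptor PDGFRA, secrete a basement membrane of laminin and collagen IV, and later take up proteins through cubilin and megalin. LIF acts through STAT3, and FGF4 acts through FGF receptors and ERK, the pathways that hold and that end naive pluripotency. The question put to the 4 h to 8 h step was which of these programmes had moved by the end of it.

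Reads on genes ranged from 3190108 to 9640546 in the 4 h samples, where replicate 2 was the shallow one, and from 8723008 to 10115754 in the 8 h samples. Levels are given as normalized counts, the reads of a gene divided by the size factor the authors had applied to the sample, and are not corrected for gene length. Of 54233 rows, the 15227 genes with at least 10 normalized counts in at least 4 of the 32 samples were tested with limma on log2(normalized count + 1). Differences between the times are on that log2 scale, 8 h minus 4 h, with the standard error (SE), and they understate the change of low genes; a ± after a mean level is the SD of 4 samples. A gene rose or fell when its adjusted p (false discovery rate, FDR) was below 0.1, and a 4-fold call also needed a log2 difference of at least 2. Steps were compared as whole differences, not per hour. The step from 4 h to 8 h is longer than the one before it and shorter than the one after it. Replicates 1 and 2 resembled each other at both times, as did replicates 3 and 4. Set against the sampling noise of the reads, the chi-square divided by its degrees of freedom was 1.2 to 1.94 in the 4 comparisons inside such a pair, called a replicate set here, and 7.65 to 12.94 in the 8 comparisons across sets. What separates the replicates is not said in the labels, so the p-values measure the spread between these samples, which may be technical. In a fit on 1 mean per replicate set, which has fewer samples, 39 of the 129 genes named here lost the call. The 129 include genes without a call, which could not lose one. The 39 are listed with the effects of the processing.

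The step had more 4-fold rises than 4-fold falls. A total of 86 genes rose 4-fold or more (0.565% of those tested) and 38 fell 4-fold or more (0.25%). At any size 1448 genes rose (9.51%) and 1152 fell (7.57%), while the median difference of all tested genes was 0.009. These shares are the ones to set beside the counts of the gene lists below. On 1 mean per replicate set, a fit with fewer samples, 285 rose and 203 fell at any size, and 73 and 32 at 4-fold. The gene lists were not counted in that fit. Only 23 of the 86 reached a mean of 100 normalized counts at 8 h, and 20 had at most 3 reads in every 4 h sample, so that most 4-fold calls were of genes at low levels. Of the 38 falls, 6 had a mean of at least 100 at 4 h. The plot of all tested genes shows these calls against their mean level.

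**Figure D1:**
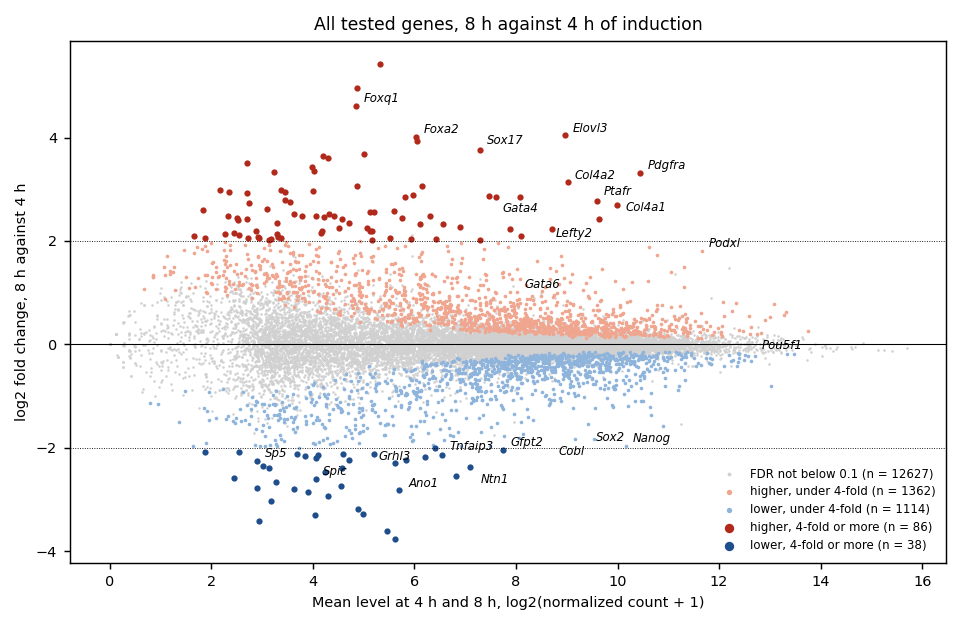
Difference between 8 h and 4 h of every tested gene (vertical axis, log2) against its mean level at the 2 times (horizontal axis, log2(normalized count + 1)). Dark red points are the 86 genes that rose 4-fold or more, dark blue points the 38 that fell 4-fold or more, pale points genes past FDR 0.1 at a smaller size, and dotted lines mark log2 differences of 2 in either direction.

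The endogenous *Gata6* gene (GRCm38, chromosome 18, 11052064 to 11085635, plus strand) stood at 149, 191, 172 and 173 normalized counts in replicates 1 to 4 at 4 h and at 328, 329, 351 and 376 at 8 h. The groups did not overlap, and the level rose 2.02-fold, a log2 difference of 1.01 ± 0.15 (SE, n = 4 against 4, limma, adjusted p = 2.1e-05). This rise was smaller than the one between 2 h and 4 h, by 2.44 in log2 units (limma, adjusted p of the difference between the steps = 5.6e-07), although the later step is the longer one. The *transgene* row held 413, 446, 538 and 645 normalized counts at 4 h and 451, 363, 594 and 610 at 8 h. These groups overlapped, and the log2 difference was -0.03 (limma, adjusted p = 0.98). The *transgene* was at 233 to 374% of the endogenous gene in the 4 h samples and at 110 to 169% in the 8 h samples. How reads were split between the 2 rows of the deposited table is not stated, so these percentages rest on that split.

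Of the 22 tested genes on a list of PrE transcription factors, 10 rose (45.5%), 3 fell (13.6%) and 9 did not pass the test. The median log2 difference was 0.47 against 0.009 over all tested genes, of which 9.51% rose and 7.57% fell. The list holds 5 of the 4-fold rises: *Foxq1*, *Foxa2*, *Sox17*, *Gata4* and *Sox7*. *Gata4*, a partner and successor of GATA6 (GRCm38, chromosome 14, 63198922 to 63271692, minus strand), stood at 26.7, 36.3, 60.9 and 71.1 normalized counts at 4 h and at 292, 274, 388 and 392.3 at 8 h. The groups lay far apart, with replicates 3 and 4 the higher pair at both times, and the log2 difference was 2.85 ± 0.30 (SE, limma, adjusted p = 6.6e-08). Between 2 h and 4 h the *Gata4* difference was 0.80 (limma, adjusted p = 0.063), and the later and longer step was larger by 2.04 (limma, adjusted p = 0.019). *Sox17*, an HMG-box factor of endoderm (chromosome 1, 4490931 to 4497354, minus strand), went from 11.9, 21.8, 26.5 and 21.7 to 198, 235, 362 and 363 normalized counts. Every 8 h sample was above every 4 h sample, with a log2 difference of 3.76 ± 0.29 (SE, limma, adjusted p = 1.2e-10). *Sox17* had already risen by 2.72 between 2 h and 4 h, and the steps did not differ by the test (limma, adjusted p = 0.28).

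The forkhead factor *Foxa2*, which opens endoderm enhancers, stood at 4.94, 4.85, 9.62 and 7.80 normalized counts at 4 h and at 115, 93.8, 153 and 128 at 8 h. It was close to its floor in every 4 h sample and measured in every 8 h sample, with a log2 difference of 4.01 ± 0.32 (SE, limma, adjusted p = 1.6e-10). *Foxq1*, another forkhead gene, had at most 2 reads in any 4 h sample, against 40.1, 30.4, 75.4 and 71.5 normalized counts at 8 h. Its fitted difference of 4.62 depends on the pseudocount for that reason, and it was larger than the difference at the shorter step before by 4.81 (limma, adjusted p = 4.2e-06). *Sox7*, a SOX factor closely related to SOX17, rose from 18.8, 7.27, 16.8 and 12.1 to 53.4, 67.0, 48.2 and 54.7 normalized counts, as much as it had between 2 h and 4 h (2.01 and 1.99 on the log2 scale). *Hnf4a*, a nuclear receptor of later visceral endoderm, had at most 3 reads in any sample of either time and a mean of 800 normalized counts at 48 h, so a change of it between 4 h and 8 h was not detectable at this depth.

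The promoters of the named genes were searched for the core of the site that GATA factors bind, because several of them rose together in these cells. The motif was AGATAA, its variant AGATAG, the form TGATAA or the form TGATAG on either strand, from 250 bases before to 50 bases after the start, in RefSeq promoter windows of build GRCm38.p6. It was in 29.8% of all 32851 windows, in 18.9% of the 13653 windows of tested genes, in 15 of the 79 windows of genes that rose 4-fold and in 9 of the 30 windows of genes that fell 4-fold. Of the 31 named genes looked up, 22 had a window and 3 of these held a match, beside 2333 of the 10657 tested genes with a window. The 3 sites are printed to show the match, in capitals, 5′ to 3′ on the strand of the gene. The *Foxa2* match, at chr2:148045630-148045659 on the minus strand, starts 183 bases before 1 of 3 RefSeq starts and lies in an intron of another GENCODE transcript of the gene. The *Dact1* match, at chr12:71309853-71309882 on the plus strand, starts 19 bases before the RefSeq start and is the motif TGATAA on the other strand. The *Nanog* match, at chr6:122707582-122707611 on the plus strand, starts 30 bases after the later of 2 RefSeq starts, in the 5′ untranslated region.
Foxa2: ctgttagccttgAGATAAtattaactttgt
Dact1: gtggccggggcgTTATCAgctgcggggcgg
Nanog: ccgttggccttcAGATAGgctgatttggtt
Of these genes *Foxa2* and *Dact1* rose and *Nanog* fell, and binding at the printed sites was not tested here. The windows of *Elovl3*, *Gata4*, *Gata6*, *Gdpd5*, *Lefty2*, *Ntn1*, *Pdgfrb*, *Sox17* and *Tnfrsf22* were not searched.

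On a list of PDGF and FGF pathway genes, 6 of the 19 tested members rose (31.6%) and 3 fell (15.8%), beside 9.51% and 7.57% of all tested genes. The median log2 difference was 0.02, and with the replicate block 5 fell. Receptors were among the rises, and ligands went both ways. *Pdgfra*, the PDGF receptor used as a surface marker of PrE (chromosome 5, 75152292 to 75198215, plus strand), stood at 353, 288, 189 and 205 normalized counts at 4 h and at 2777, 2819, 2234 and 2281 at 8 h. Each 8 h sample was above every 4 h sample, with a log2 difference of 3.32 ± 0.14 (SE, limma, adjusted p = 8e-17), the most abundant of the 4-fold rises at 8 h. *Pdgfra* had risen by 3.56 at the step before, and the steps did not differ by the test (limma, adjusted p = 0.68). *Pdgfrb*, its paralogue of mesenchymal cells, stood at 8.90, 12.1, 58.5 and 66.7 at 4 h and at 85.6, 77.7, 212 and 224 at 8 h. Its level followed the replicate set at both times, and it rose by 2.32 ± 0.56 (SE, limma, adjusted p = 0.0049; 0.26 on 1 mean per replicate set). The ligand *Pdgfa* fell from 375 ± 22.0 to 263 ± 41.1 and the ligand *Pdgfc* from 303 ± 22.3 to 126 ± 10.9 (limma, adjusted p = 0.0054 and 0.0026).

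Among the FGF genes, the receptor *Fgfr2*, through which PrE cells read FGF4, went from 61.3, 58.2, 97.0 and 88.4 to 156, 134, 232 and 242 normalized counts. Its log2 difference was 1.30 ± 0.35 (SE, limma, adjusted p = 0.01, and 0.29 on 1 mean per replicate set). *Fgfr1*, the receptor that mES cells share with PrE, overlapped between the times at 477 ± 116 and 603 ± 164 normalized counts (mean ± SD, limma, adjusted p = 0.39). *Fgf4*, the ligand made by Epi cells, went from 775, 645, 525 and 555 to 365, 421, 264 and 294. It was lower in every 8 h sample (log2 difference -0.90 ± 0.29 SE, limma, adjusted p = 0.035), and this call was lost without replicate 1 at 4 h or replicate 3 at 8 h (adjusted p = 0.11 each). *Fgf3*, a ligand of parietal endoderm, rose 3.01-fold, from 23.3 ± 4.68 to 70.1 ± 13.3 (limma, adjusted p = 1.3e-06).

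Of the 23 basement membrane genes 10 rose (43.5%) and none fell, beside 9.51% and 7.57% of all tested genes. A list of this size would hold few falls at that share. The other 13 did not pass the test (14 rose with the replicate block), and the median log2 difference was 0.31. The chains of collagen IV led them. *Col4a1* (chromosome 8, 11198423 to 11312826, minus strand) stood at 258, 329, 253 and 248 normalized counts at 4 h and at 1707, 1703, 1822 and 1762 at 8 h. Its 8 h samples lay close together, far above the 4 h samples, with a log2 difference of 2.69 ± 0.19 (SE, limma, adjusted p = 1.1e-11). *Col4a2*, which is transcribed from the same promoter region in the other direction, rose by 3.14 ± 0.24 (SE, limma, adjusted p = 1.1e-10). Neither chain rose more or less than at the step before by the test (limma, adjusted p = 0.68 and 0.56).

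*Serpinh1* (HSP47), the collagen chaperone, rose at this step and had not passed the test at the one before it. It folds procollagen in the endoplasmic reticulum, and it stood at 618, 552, 724 and 798 normalized counts at 4 h and at 2216, 2079, 2830 and 2756 at 8 h. Its log2 difference was 1.88 ± 0.12 (SE, limma, adjusted p = 4.5e-12) against 0.16 between 2 h and 4 h, the shorter step, and the steps differed by 1.72 (limma, adjusted p = 5.9e-06). *P4hb*, a subunit of the collagen prolyl hydroxylase, rose by 0.34 ± 0.08 (SE, limma, adjusted p = 0.0025). *P4ha2*, a catalytic subunit, stood at 9.88, 2.42, 61.7 and 71.9 at 4 h and at 29.1, 31.3, 124 and 156 at 8 h. It was lower in replicates 1 and 2 at both times, so that the groups overlapped and the log2 difference of 1.70 did not pass the test (limma, adjusted p = 0.14), whereas it passed with the replicate block (adjusted p = 0.0033) but not on 1 mean per replicate set (0.63). Of the laminin chains, *Lamb1* rose by 1.49 ± 0.12 (SE, limma, adjusted p = 9.6e-11), from 1324 ± 46.8 to 3725 ± 163 normalized counts. *Lama1* and *Lamc1* rose by 0.59 and 0.57 (limma, adjusted p = 0.084 and 0.081). These calls, and that of *Sparc*, a collagen-binding matrix protein (0.62, adjusted p = 0.062), were not stable. Without replicate 2 at 4 h the adjusted p (limma) was 0.16 for *Lama1*, 0.22 for *Lamc1* and 0.20 for *Sparc*. On 1 mean per replicate set it was 0.55, 0.55 and 0.54. *Lama1* lost its call whichever single sample at 4 h or 8 h was left out (limma, adjusted p from 0.11 to 0.16). *Nid1*, the linker between laminin and collagen IV, was at 4147 ± 1667 and 3974 ± 1146 (limma, adjusted p = 0.99).

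The genes for endocytosis and the apical surface rose in 9 of 16 cases (56.2%) and fell in 1 (6.25%). Of all tested genes 9.51% rose and 7.57% fell. The median log2 difference of the list was 0.99. The fall was lost without replicate 3 or replicate 4 at 4 h and without replicate 2 or replicate 4 at 8 h. *Cubn*, *Dab2* and *Nostrin* were still at low levels. *Cubn*, the receptor cubilin, stood at 5.93, 9.69, 5.61 and 0.867 normalized counts at 4 h and at 27.5, 32.1, 35.0 and 24.3 at 8 h, far below its mean of 27060 at 48 h. It rose by 2.47 ± 0.35 (SE, limma, adjusted p = 9.8e-06), although limma-voom on reads gave an adjusted p of 0.12. *Dab2*, the adaptor that links megalin and cubilin to clathrin, went from 19.8, 12.1, 28.9 and 35.5 to 75.4, 93.8, 117 and 98.1, and *Nostrin*, an adaptor at the membrane, from at most 2 reads in any 4 h sample to 14.9, 14.3, 21.8 and 26.6 normalized counts. Other members were at higher levels. The receptor *Lrp2* (megalin) stood at 512, 480, 1187 and 1168 at 4 h and at 1854, 1670, 3581 and 3638 at 8 h, higher in replicates 3 and 4 at both times, with a log2 difference of 1.72 ± 0.46 (SE, limma, adjusted p = 0.012; 0.32 on 1 mean per replicate set). *Podxl* (podocalyxin, an anti-adhesive protein of the apical surface) rose from 1441 ± 186 to 5008 ± 150 (1.81 ± 0.12 SE, limma, adjusted p = 7.3e-12). The folate receptor *Folr1* rose from 320 ± 46.0 to 741 ± 87.6 and the megalin chaperone *Lrpap1* from 1603 ± 239 to 3436 ± 479 (limma, adjusted p = 0.00051 and 2.7e-06).

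**Figure D2:**
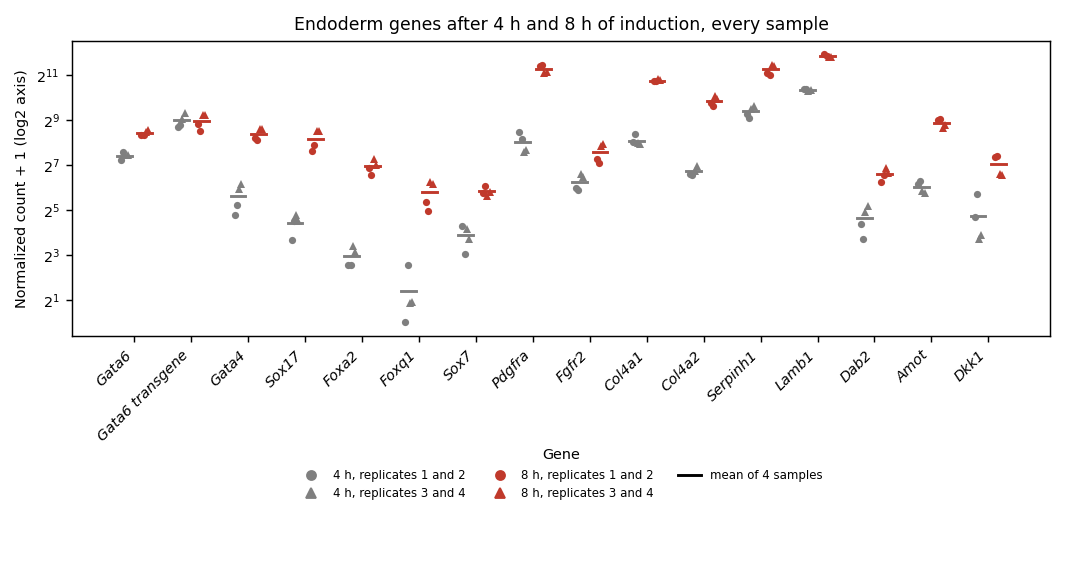
Normalized count + 1 (log2 axis) of 15 endoderm genes and the *Gata6* *transgene* in each of the 4 samples at 4 h (grey) and at 8 h (red), with circles for replicates 1 and 2, triangles for replicates 3 and 4 and bars for the mean of 4 samples. The 2 times are apart for every gene shown except the *transgene*.

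Secreted products of visceral and parietal endoderm were in part beyond reach. Of the 29 genes on that list, 10 were too low to test, among them *Afp*, *Alb* and *Apoa1*, which had at most 4 reads in any sample of the 2 times. Of the 19 tested, 6 rose (31.6%) and none fell, beside 9.51% and 7.57% of all tested genes, with a median of 0.40. Without replicate 1 or replicate 2 at 4 h 1 fell. *Amot*, which encodes a junctional protein that holds YAP, went from 71.2, 77.5, 56.9 and 53.7 to 513, 538, 402 and 441 normalized counts (log2 difference 2.85 ± 0.13 SE, limma, adjusted p = 1.7e-16), more than at the shorter step before by 1.44 (limma, adjusted p = 0.00011). *Plat*, the plasminogen activator of parietal endoderm, rose by 1.56 ± 0.26 (SE, limma, adjusted p = 9.9e-05). The imprinted neighbours *H19* and *Igf2* rose by 1.34 and 1.73 (limma, adjusted p = 0.0077 and 0.0034), to 39.6 ± 6.80 and 24.7 ± 9.32 normalized counts, limma-voom on reads gave adjusted p of 0.16 and 0.12. *Apoe*, an apolipoprotein that is abundant in mES cells too, was at 3165 ± 574 and 3218 ± 248 (limma, adjusted p = 0.93).

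Naive pluripotency genes fell over the same hours. Of the 28 genes on this list, 16 fell (57.1%) and 1 rose (3.57%), beside 7.57% and 9.51% of all tested genes. The other 11 did not pass the test, and the median log2 difference was -0.61. None of the 28 reached 4-fold. *Nanog* (chromosome 6, 122707489 to 122714633, plus strand) held 1796, 1757, 1855 and 1873 normalized counts at 4 h and 377, 398, 544 and 571 at 8 h. The 4 h samples were within a narrow range and all 8 h samples lay far below it, at 26.0% of the 4 h mean (log2 difference -1.97 ± 0.22 SE, limma, adjusted p = 2.2e-07). *Nanog* had fallen by 0.85 (log2) at the step before, and the fall of the later step was larger by 1.11 (limma, adjusted p of the difference = 0.095). The later step is the longer one, and rates per hour were not compared. *Sox2* (chromosome 3, 34650405 to 34652461, plus strand) went from 1064, 1156, 922 and 959 to 387, 386, 297 and 333. That is 34.2% of the 4 h mean (log2 difference -1.55 ± 0.21 SE, limma, adjusted p = 3.2e-06), and the steps did not differ by the test (limma, adjusted p = 0.27).

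Other factors of the naive network moved less. *Esrrb*, an orphan nuclear receptor that sustains self-renewal, went from 1715, 1892, 2061 and 2212 to 784, 779, 1053 and 1119 normalized counts, a log2 difference of -1.09 ± 0.16 (SE, limma, adjusted p = 2e-05). *Tdh*, the threonine dehydrogenase on which mES cells depend, fell by 1.36 ± 0.09 (SE, limma, adjusted p = 2.1e-12). *Zfp42* (REX1) and *Klf4* fell by 0.65 and 0.69 (limma, adjusted p = 6.8e-09 and 0.00027). *Tfcp2l1*, a LIF-dependent factor of the same network, overlapped between the times at 5043 ± 888 and 5218 ± 1273 (limma, adjusted p = 0.95). *Tcl1*, a coactivator of AKT, was the 1 member that rose, from 192 ± 39.5 to 304 ± 37.4 (log2 difference 0.68 ± 0.17 SE, limma, adjusted p = 0.0081).

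The core pluripotency list was divided, with 2 rises (10.0%) and 5 falls (25.0%) among 20 tested genes and a median of -0.02. Its share of rises was near the 9.51% of all tested genes, of which 7.57% fell. With the replicate block 5 rose, and 4 rose without replicate 1 or without replicate 2 at 4 h. *Pou5f1* (OCT4), shared by Epi and early PrE, held 7440, 7559, 6260 and 6659 normalized counts at 4 h and 6869, 6467, 6102 and 5620 at 8 h. The groups overlapped and the log2 difference of -0.16 ± 0.10 (SE) did not pass the test (limma, adjusted p = 0.38). It did not pass with the replicate block or on 1 mean per replicate set either. Within replicates 1 and 2 alone and within replicates 3 and 4 alone the adjusted p (limma) was 0.047 and 0.034. These fits measure the spread inside a replicate set, which was far smaller than the spread across sets. *Foxd3*, a forkhead factor of ES cells, fell by 1.67 ± 0.41 (SE, limma, adjusted p = 0.0057) from 47.1 ± 6.44 to 14.1 ± 2.00. *Epcam*, an adhesion protein of the epithelial surface, rose by 0.73 ± 0.14 (SE, limma, adjusted p = 0.00069). On the list of formative epiblast genes, 4 of 20 tested genes rose (20.0%) and 1 fell (5.0%), beside 9.51% and 7.57% of all tested genes, with a median of 0.02. The rises included the DNA methyltransferases *Dnmt3b*, from 1175 ± 58.2 to 3091 ± 215 (1.39 ± 0.11 SE, limma, adjusted p = 1.6e-10), and *Dnmt3a* (1.08 ± 0.21 SE, limma, adjusted p = 0.00053, and 0.14 on 1 mean per replicate set). Their cofactor *Dnmt3l*, a member of the core list, was at 4381, 4366, 1238 and 1239 at 4 h and at 8078, 7602, 5399 and 5272 at 8 h. The groups did not overlap, but the replicate sets were so far apart that the log2 difference of 1.47 did not pass the test (limma, adjusted p = 0.11; with the replicate block, 0.036; on 1 mean per replicate set, 0.62). *Otx2*, a defining factor of the formative state, was at 20.1 ± 9.54 and 28.4 ± 10.8 (limma, adjusted p = 0.37).

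**Figure D3:**
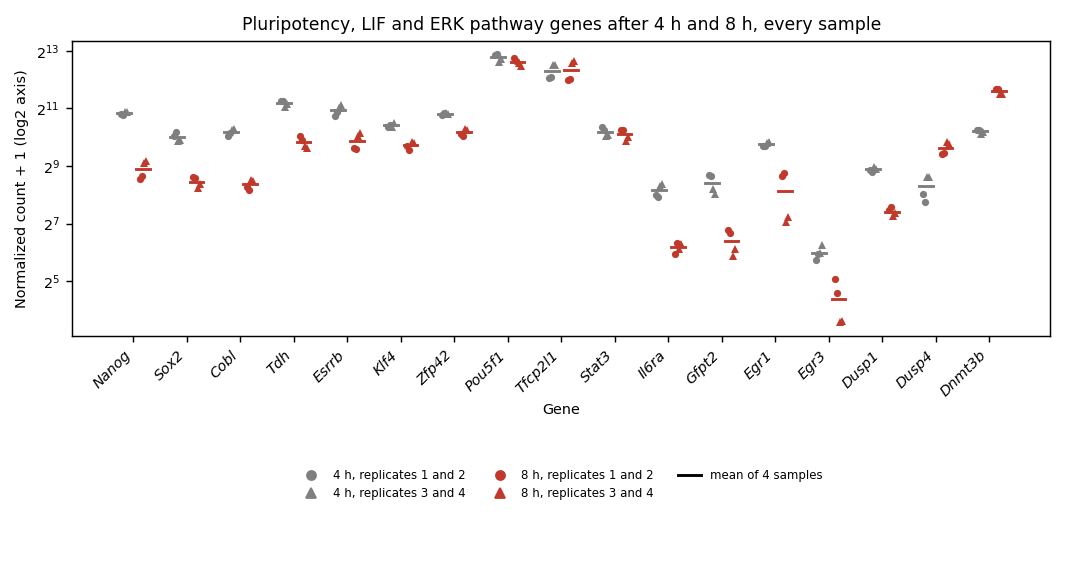
Normalized count + 1 (log2 axis) of 17 pluripotency, LIF and ERK pathway genes in each of the 4 samples at 4 h (grey) and at 8 h (red), with circles for replicates 1 and 2, triangles for replicates 3 and 4 and bars for the mean of 4 samples. *Nanog*, *Sox2* and *Cobl* dropped well below their 4 h range, while *Pou5f1*, *Tfcp2l1* and *Stat3* overlapped between the times.

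LIF pathway genes fell while LIF stayed in the medium. Of 15 tested members 8 fell (53.3%) and none rose, beside 7.57% and 9.51% of all tested genes, with a median of -0.48. Without replicate 3 at 8 h the number that fell was 5. *Il6ra*, the interleukin 6 receptor chain, went from 253, 242, 314 and 328 to 60.5, 78.6, 69.2 and 77.5 normalized counts, a log2 difference of -1.97 ± 0.37 (SE, limma, adjusted p = 0.00038). *Gfpt2*, an enzyme of the hexosamine pathway on the same list, was its only 4-fold fall, from 343 ± 77.3 to 83.4 ± 24.1 (-2.04 ± 0.20 SE, limma, adjusted p = 2.1e-08). *Stat3* itself was at 1170 ± 124 and 1104 ± 144 (limma, adjusted p = 0.59).

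Immediate early genes went on falling. They are the genes that growth factors and serum switch on through ERK and SRF without new protein, and 18 of the 28 tested had already fallen between 2 h and 4 h, when 10.9% of all tested genes fell. From 4 h to 8 h 12 of the 28 fell (42.9%) and none rose, with a median of -0.41. Over that step 7.57% of all tested genes fell and 9.51% rose. *Egr1*, an ERK target, held 836, 836, 879 and 906 normalized counts at 4 h and 404, 427, 133 and 150 at 8 h. It fell in all samples but further in replicates 3 and 4, and the log2 difference was -1.83 ± 0.40 (SE, limma, adjusted p = 0.0019, and 0.2 on 1 mean per replicate set). *Egr3* fell from 62.7 ± 9.93 to 19.6 ± 10.6 after a mean of 420 at 2 h, *Egr2* from 15.2 ± 4.71 to 3.7 ± 1.97, and the AP-1 subunit *Fosl1* from 70.6 ± 10.6 to 23.1 ± 3.01 (limma, adjusted p = 0.0056, 0.005 and 0.039). On 1 mean per replicate set these adjusted p were 0.15, 0.1 and 0.31.

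Feedback genes of the ERK pathway did not move together. Of 19 tested, 7 fell (36.8%) and 2 rose (10.5%), beside 7.57% and 9.51% of all tested genes, with a median of -0.21. The phosphatase *Dusp1* fell from 459, 446, 501 and 475 to 175, 189, 151 and 163 (log2 difference -1.47 ± 0.22 SE, limma, adjusted p = 1.9e-05), and *Errfi1*, an inhibitor of EGF receptors, fell from 788 ± 209 to 330 ± 38.1 (limma, adjusted p = 2.3e-05). *Dusp4*, a nuclear phosphatase for ERK, went the other way, from 262, 213, 390 and 389 to 680, 691, 908 and 868 (1.36 ± 0.36 SE, limma, adjusted p = 0.01, and 0.28 on 1 mean per replicate set). *Dusp6*, the cytoplasmic ERK phosphatase often used as its readout, overlapped at 940 ± 115 and 881 ± 185 (limma, adjusted p = 0.93).

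The Wnt list had 3 rises and 3 falls among 20 tested genes (15.0% each, beside 9.51% and 7.57% of all tested genes), with a median of -0.04. *Dkk1*, a secreted Wnt inhibitor of anterior visceral endoderm, rose from 24.7, 50.9, 12.0 and 13.9 to 163, 169, 96.4 and 93.5 normalized counts (2.49 ± 0.29 SE, limma, adjusted p = 3.5e-07), with replicates 1 and 2 higher at both times. *Sp5*, a direct target of beta-catenin, had at most 3 reads in any 8 h sample against 13.8, 19.4, 4.01 and 8.67 normalized counts at 4 h. *Notum*, an enzyme that inactivates Wnt proteins, fell by 1.06 ± 0.29 (SE, limma, adjusted p = 0.012). *Axin2*, the common target used as a readout of the pathway, was at 534 ± 81.5 and 574 ± 74.5 (limma, adjusted p = 0.78). *Dact1*, an inhibitor of Dishevelled that is on none of the lists, rose from 31.6, 19.4, 40.9 and 38.1 to 112, 87.5, 175 and 176 (2.04 ± 0.33 SE, limma, adjusted p = 6.2e-05).

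On the *Nodal* and BMP list 5 of 26 tested genes rose (19.2%) and 3 fell (11.5%), beside 9.51% and 7.57% of all tested genes. The median was -0.07, and 5 fell with the replicate block. The rises included both Lefty genes, which are targets of *Nodal*. *Lefty2*, a secreted inhibitor of *Nodal* (chromosome 1, 180893108 to 180899103, plus strand), stood at 245, 288, 231 and 236 normalized counts at 4 h and at 1388, 1383, 1324 and 1276 at 8 h, and the groups were far apart (log2 difference 2.42 ± 0.39 SE, limma, adjusted p = 5.5e-05). Its near copy *Lefty1* rose from 6.45 ± 3.07 to 24.9 ± 6.36 (limma, adjusted p = 0.00017); reads that both copies share make the split between them uncertain. *Nodal* itself was at 350 ± 66.0 and 360 ± 61.7 (limma, adjusted p = 0.94). *Inhbb*, the activin B subunit, fell by 1.87 ± 0.35 (SE, limma, adjusted p = 0.00034), and *Id2*, a BMP target, by 1.14 ± 0.29 (SE, limma, adjusted p = 0.0072).

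Epithelial genes gave 4 rises (14.3%) and 3 falls (10.7%) among 28 tested, beside 9.51% and 7.57% of all tested genes. The median was -0.13, and 5 fell with the replicate block. The keratin gene *Krt19* rose from 427, 412, 454 and 466 to 1102, 1099, 1386 and 1299 (log2 difference 1.47 ± 0.28 SE, limma, adjusted p = 0.00045). *Grhl3*, a grainyhead factor of surface epithelium (chromosome 4, 135541888 to 135573630, minus strand), fell from 106, 104, 142 and 131 to 21.2, 21.4, 33.4 and 28.9 (-2.17 ± 0.29 SE, limma, adjusted p = 3.7e-06). *Cdh1* (E-cadherin) was at 4539 ± 902 and 3762 ± 831 and did not pass the test (log2 difference -0.28, limma, adjusted p = 0.25). It did not pass with the replicate block or on 1 mean per replicate set either. The adjusted p (limma) was 0.00031 in replicates 1 and 2 alone and 0.00012 in replicates 3 and 4 alone. These fits measure the spread inside a replicate set, which was far smaller than the spread across sets. Among G1 cyclins and CDK inhibitors 2 of 19 fell (10.5%, beside 7.57% of all tested genes) and none rose, with a median of -0.05. Without replicate 1 or replicate 2 at 4 h or replicate 4 at 8 h 1 fell and 1 rose, and without replicate 3 at 8 h 1 rose. *Cdk6* went from 481, 497, 480 and 431 to 308, 338, 272 and 282 (-0.66 ± 0.15 SE, limma, adjusted p = 0.0027), whereas *Ccnd2* was near its floor and lost its call without replicate 1 at 4 h (adjusted p = 0.12), without replicate 2 at 4 h (0.10) and without replicate 4 at 8 h (0.16). *Ccnd1*, the abundant D cyclin, was at 1022 ± 32.9 and 1122 ± 96.8 (limma, adjusted p = 0.61).

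Genes of cholesterol and fatty acid synthesis moved one way before 4 h and the other way after it. Of 29 tested, 21 fell and 1 rose between 2 h and 4 h, when 10.9% of all tested genes fell and 13.6% rose. From 4 h to 8 h 14 rose (48.3%) and none fell, beside 9.51% and 7.57% of all tested genes, with a median of 0.34. With the replicate block 18 rose and 1 fell. The steps differed by the test, with the later one the higher, in 18 of the 29 genes, beside 1214 of all tested genes in either direction (7.97%); both steps use the same 4 h samples. *Fdft1* (squalene synthase) went from a mean of 1353 at 2 h to 730, 710, 864 and 865 normalized counts at 4 h and 1390, 1365, 1262 and 1303 at 8 h. Its 8 h samples lay around the 2 h mean, with a log2 difference of 0.75 ± 0.10 (SE, limma, adjusted p = 3.7e-06), and the steps differed by 1.53 (limma, adjusted p = 1.3e-06). *Insig1*, the sterol sensor that restrains SREBP, rose by 0.68 ± 0.15 (SE, limma, adjusted p = 0.0027, and 0.21 on 1 mean per replicate set).

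The remaining pathway lists had few genes past the test. On the integrated stress response list 2 of 18 rose (11.1%, beside 9.51% of all tested genes) and none fell, with a median of 0.32. These were the subunits of 1 amino acid transporter, *Slc7a5* (3857 ± 822 to 5948 ± 723, limma, adjusted p = 0.00053) and *Slc3a2* (2920 ± 305 to 3950 ± 439; adjusted p = 0.0057), while *Atf4*, the factor that drives the response, was at 4549 ± 29.7 and 4513 ± 237 (adjusted p = 0.97). Of 15 p53 targets 3 fell (20.0%, beside 7.57% of all tested genes) and none rose, with a median of -0.06. The falls were of *Perp* and *Btg2*, by 1.08 and 1.07 (limma, adjusted p = 0.00031 and 1.1e-05), and of *Plk2*, by 1.18 (adjusted p = 0.049). The *Plk2* call was lost without replicate 3 or 4 at 4 h (adjusted p = 0.16 and 0.15) and without replicate 1 or 2 at 8 h (0.16 and 0.12), and *Cdkn1a* (p21) did not pass the test (adjusted p = 0.64). Of 16 genes for retinoid handling 2 rose (12.5%, beside 9.51% of all tested genes) and none fell, with a median of 0.03. Only 1 rose without replicate 1 or 2 at 4 h or without replicate 3 or 4 at 8 h. *Cyp26a1*, which degrades retinoic acid, went from 45.5, 38.8, 58.5 and 59.8 to 96.6, 116, 225 and 191 (1.55 ± 0.26 SE, limma, adjusted p = 0.00011).

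**Figure D4:**
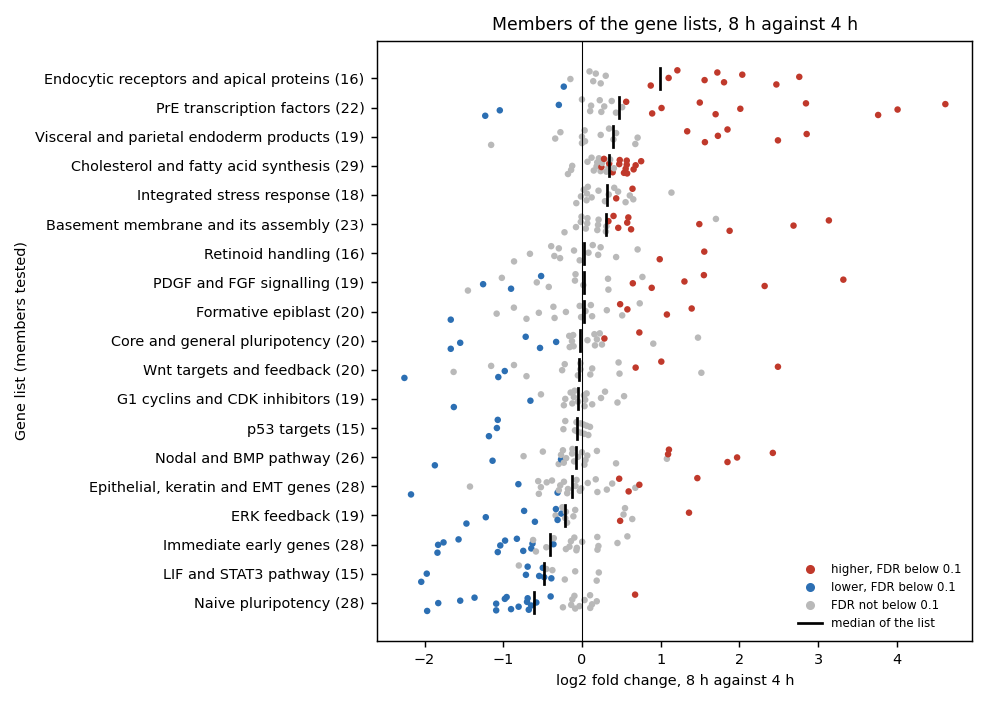
Log2 difference between 8 h and 4 h of every tested member of 19 gene lists, ordered by their median (black bar), with members that rose at FDR below 0.1 in red, members that fell in blue and the others in grey. Endocytic and apical genes have the highest median (0.99) and naive pluripotency genes the lowest (-0.61).

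Markers of other cell types that the cultures could hold were counted in the same way, and their part in the results above was not tested. On the trophoblast list 2 of 10 tested genes rose (20.0%) and none fell, beside 9.51% and 7.57% of all tested genes. The list is too short to set these counts apart from those shares. Without replicate 1 or replicate 2 at 4 h 1 rose and 2 fell, and without replicate 3 or replicate 4 at 8 h 1 rose and 1 fell. The summed level of the list was 988 to 1558 normalized counts at 4 h and 879 to 1199 at 8 h. The rises included *Ascl2*, from 5.75 ± 2.40 to 28.1 ± 6.68 (2.15 ± 0.42 SE, limma, adjusted p = 0.00065, and 0.11 on 1 mean per replicate set). *Cdx2*, the defining factor of trophectoderm, was at 27.2 ± 17.2 and 11 ± 5.71 and did not pass the test (limma, adjusted p = 0.14). Its fall passed with limma-voom on reads (adjusted p = 0.08) and without replicate 1 or replicate 2 at 4 h (limma, 0.093 and 0.086). It did not pass with the replicate block or on 1 mean per replicate set. On the mesoderm list 1 of 4 tested genes fell (25.0%, beside 7.57% of all tested genes), the VEGF receptor *Kdr* (-1.81 ± 0.38 SE, limma, adjusted p = 0.0014). The summed level of that list was 146 to 187 at 4 h and 120 to 174 at 8 h, and without replicate 4 at 4 h 2 of its genes fell. T (brachyury), the defining factor of that list, was at 28.7, 46.0, 4.81 and 1.73 at 4 h and at 3.14, 8.04, 1.55 and 1.52 at 8 h, so that the groups overlapped (adjusted p = 0.24; with the replicate block, 0.043; on 1 mean per replicate set, 0.72). None of 4 neural and none of 6 2-cell-like genes passed the test, at sums of 495 to 560 and 511 to 606 for the neural list and of up to 205 and 125 for the 2-cell-like one. Of the fibroblast feeder list only *Pdgfrb* and *Thy1* could be tested. The collagens *Col1a1*, *Col1a2* and *Col3a1*, which define fibroblasts, had at most 6 reads in any sample, and *Thy1* was at 12.0 ± 0.87 and 12.8 ± 4.31 (adjusted p = 0.98).

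The study drew lists of PrE and Epi genes from single cells of the blastocyst. Of 572 tested PrE genes 204 rose (35.7%) and 24 fell (4.20%), with a median log2 difference of 0.18, beside 9.51% and 7.57% of all tested genes. Of 215 tested Epi genes 9 rose (4.19%) and 52 fell (24.2%), with a median of -0.14; 18 rose with the replicate block. Most genes of either list did not pass the test. The largest rises on the PrE list were *Foxq1*, *Foxa2* and *Sox17*. Its largest falls were the pepsinogen *Pga5*, with at most 3 reads in any sample of the 2 times, *Id2*, and the sulfate transporter *Slc26a2*, which went from 1131, 1146, 1351 and 1349 to 659, 665, 744 and 756 normalized counts (-0.81 ± 0.09 SE, limma, adjusted p = 1.1e-07). On the Epi list the largest fall was *Spic*, an ETS-family factor of naive cells and the only 4-fold fall of the list, from 22.7, 26.7, 30.5 and 29.5 to 2.36, 1.79, 5.44 and 6.84 (-2.59 ± 0.55 SE, limma, adjusted p = 0.0014). It was followed by *Nanog* and by *Cobl*, an actin nucleator, which went from 1162 ± 86.3 to 328 ± 39.0 (-1.83 ± 0.17 SE, limma, adjusted p = 4.1e-09). Among its genes past FDR 0.1, the largest rises on the Epi list were *Med13l*, a Mediator kinase subunit, the transferrin receptor *Tfrc* and *Epcam*, all by log2 differences under 1 (limma, adjusted p = 0.0013, 0.0081 and 0.00069).

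Several of the largest rises were of genes outside the pathway lists. *Elovl3*, an elongase of very long chain fatty acids (chromosome 19, 46131897 to 46135694, plus strand), held 47.5, 48.5, 68.2 and 61.5 normalized counts at 4 h and 841, 790, 1081 and 1064 at 8 h. It had the largest difference among the abundant genes, 4.04 ± 0.44 (SE, limma, adjusted p = 1.1e-07), and its means were 268 at 16 h, 5.53 at 24 h and 0 at 48 and 96 h. *Ptafr*, the receptor for platelet-activating factor, followed the same course, from 161, 160, 237 and 230 to 1209, 1160, 1522 and 1492 (2.78 ± 0.42 SE, limma, adjusted p = 1.9e-05) and on to a mean of 39.9 at 24 h. *Tnfrsf23* and *Tnfrsf22*, neighbouring decoy receptors for TRAIL, both rose (limma, adjusted p = 1.4e-08 and 1.5e-11). *Tnfrsf23* was at 3.95, 4.85, 10.4 and 11.3 at 4 h and at 105, 95.5, 147 and 142 at 8 h, and *Tnfrsf22* was at 94.9, 104, 103 and 108 at 4 h and at 416, 415, 453 and 485 at 8 h. They are near-identical copies, so the split of reads between them is uncertain.

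Other abundant genes also rose 4-fold. *Cpn1*, a carboxypeptidase subunit, went from 59.3, 50.9, 28.9 and 28.6 to 413, 397, 221 and 218 normalized counts, with replicates 1 and 2 the higher pair at both times (2.88 ± 0.26 SE, limma, adjusted p = 1.9e-09). *Gdpd5*, a glycerophosphodiesterase, rose by 2.89 ± 0.23 (SE, limma, adjusted p = 1.2e-10), and *Plac8*, a small cysteine-rich protein, by 3.07 ± 0.34 (SE, limma, adjusted p = 1.3e-07). Rises between 2.02 and 2.32 on the log2 scale were measured for *Pgam2*, a phosphoglycerate mutase of muscle, *Gulp1*, an engulfment adaptor, *Myom3*, a myomesin, *Npl*, a sialic acid lyase, and *Lrrn4*, a leucine-rich repeat protein (limma, adjusted p between 2.1e-09 and 7.3e-05). Of the 6 genes that fell 4-fold from a mean of at least 100, the groups did not overlap for *Ano1*, *Ntn1*, *Grhl3*, *Tnfaip3* and *Gfpt2*, and overlapped for *Tgm3*. *Ano1*, a calcium-activated chloride channel, went from 122, 155, 247 and 240 to 22.0, 24.1, 37.3 and 42.6, and *Ntn1*, the guidance protein netrin 1 (chromosome 11, 68209364 to 68400823, minus strand), from 313, 281, 163 and 152 to 55.0, 59.8, 29.6 and 28.9. *Ano1* fell by 2.55 ± 0.49 and *Ntn1* by 2.37 ± 0.37 (SE, limma, adjusted p = 0.00052 and 4e-05), *Ano1* being higher in replicates 3 and 4 and *Ntn1* in replicates 1 and 2.

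Genes with larger fitted differences at lower levels, named here after their values were seen, included *Sost*, an inhibitor of Wnt receptors, and *Prf1*, the pore protein perforin. *Sost* had at most 3 reads in any 4 h sample and 53.4, 56.3, 95.7 and 101 normalized counts at 8 h, and its mean was 10.0 at 16 h and 0 from 24 h on. *Prf1* had at most 2 reads in any 4 h sample and 28.3, 33.0, 77.0 and 84.4 normalized counts at 8 h, with a mean of 22.9 at 16 h. The fitted differences of 5.41 and 4.96 depend on the pseudocount. *Tnfaip3*, a feedback inhibitor of NF-kB signalling, fell from 127, 119, 185 and 171 to 22.8, 25.0, 43.6 and 44.9. The cytokine *Tnf* fell from 23.7, 24.2, 16.8 and 14.7 to 4.71, 5.36, 2.33 and 3.04, and the chemokine *Ccl20* from 20.2 ± 4.68 to 2.62 ± 2.26 (limma, adjusted p = 5.8e-09, 0.00093 and 2.5e-05). *Tnfaip3* and *Tnf* had risen at the step before, by 1.51 and 2.78, and the steps differed (limma, adjusted p = 1e-07 and 0.00013).

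Further genes, most of them at low levels, were named after their values were seen. *Car4*, a carbonic anhydrase of the cell surface, had at most 2 reads in any 4 h sample, 33.0, 30.4, 26.4 and 22.1 normalized counts at 8 h, and a mean of 947 at 24 h. *Cacna1d*, a calcium channel subunit, had no reads in any 4 h sample and 6.29, 17.9, 10.9 and 9.12 normalized counts at 8 h, so no fold is given. *Emx2*, a homeobox gene, went from 14.8, 7.27, 13.6 and 16.5 to 84.9, 87.5, 96.4 and 122 (2.85 ± 0.36 SE, limma, adjusted p = 1.5e-06) and back to a mean of 38.7 at 16 h. *Rspo3*, a secreted enhancer of Wnt signalling, rose from 3.26 ± 1.97 to 22.3 ± 10.2 (limma, adjusted p = 0.0006). Among the falls, the thyroid hormone deiodinase *Dio3* went from 28.7, 26.7, 73.0 and 95.4 to 1.57, 1.79, 7 and 10.6, and the opioid precursor *Pdyn* from 93.8 ± 13.7 to 19 ± 1.75 (limma, adjusted p = 0.0014 and 2e-05). The vasoconstrictor *Edn1* fell from 25.4 ± 9.11 to 2.75 ± 1.59 and the protease *Klk7* from 90.5 ± 51.0 to 11.4 ± 4.99 (limma, adjusted p = 1.8e-05 and 0.0015). The transglutaminase *Tgm3* was at 237, 211, 47.3 and 44.2 at 4 h and at 58.9, 54.5, 11.7 and 9.12 at 8 h. Its groups overlapped, with replicates 1 and 2 the higher pair at both times, and its 4-fold fall (limma, adjusted p = 0.07) was lost without replicate 1 or 2 at 4 h (adjusted p = 0.22 and 0.21) and without replicate 3 or 4 at 8 h (0.21 and 0.24).

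The 4-fold rises held genes that peaked at 8 h and genes that went on to higher means. Of the 86, 23 had their highest mean of the time course at 8 h, and 16, 7, 18 and 20 of them peaked at 16, 24, 48 and 96 h, with 2 highest before Dox. The mean at 24 h was above the 8 h mean in 46 of the 86 and below the 4 h mean in 13. The step was compared with its neighbours by test. The rise was larger than that between 2 h and 4 h in 45 of the 86 genes and smaller in 1, and the step from 8 h to 16 h was lower than the step from 4 h to 8 h in 38 of them and higher in 0 (limma, FDR below 0.1). The choice of genes that rose from 4 h to 8 h fixes these directions in part, since the steps share samples. The steps also differ in length and were not scaled to hours. A steady rise would therefore be larger over 4 h to 8 h than over the shorter step from 2 h to 4 h. Over all tested genes the difference between this step and the step from 8 h to 16 h passed the test in 634 (4.16%). With the replicate block 2026 genes differed from the earlier step and 1164 from the later one. Dox was removed at 12 h, between the 8 h and 16 h samples, so the later step also differs in Dox. Of the 38 falls, 15 were larger than the change at the step before, and 7 had a higher step from 8 h to 16 h; the lowest mean of the time course was at 16 h in 4 of them, at 24 h in 13, at 48 h in 8, at 96 h in 7, before Dox in 6 and at 8 h in 0.

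Among the genes with their highest mean at 8 h, *Lefty2*, at 1343 at 8 h, had means of 1251 at 16 h, 137 at 24 h and 2.96 at 96 h. *Dact1* was at 137 at 8 h and 36.7 at 16 h, *Myom3* at 386 and 167, *Tnfrsf22* at 442 and 135, and *Krt19*, with a smaller rise, at 1222 and 751. These genes were chosen for that course, so it was not tested. Among those that went on, *Gata4* reached 1526 at 16 h and 6786 at 96 h and *Col4a1* 6667 and 122900, with steps from 8 h to 16 h that did not differ from the earlier ones by the test (limma, adjusted p = 0.69 and 0.27). *Sox17* slowed, with means of 289 at 8 h, 467 at 16 h and 1511 at 96 h (limma, adjusted p of the difference between the steps = 0.00039).

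**Figure D5:**
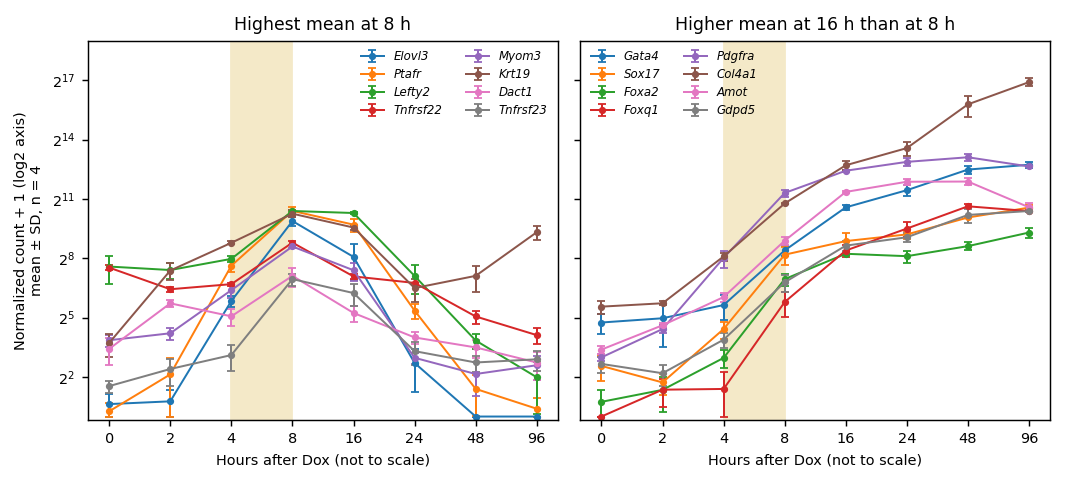
Mean ± SD (n = 4) of the normalized count + 1 (log2 axis) at each time point for 8 genes whose mean was highest at 8 h (left) and 8 genes whose mean was higher at 16 h than at 8 h (right), with the step from 4 h to 8 h shaded and the time axis not to scale. *Elovl3* fell from 944 at 8 h to 5.53 at 24 h, whereas *Col4a1* rose from 1749 to 12180.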

How the data were processed

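Poly(A) RNA was sequenced from unsorted mES cells. The authors deposited a table of log2 values in which 54233 rows stand for genes and every sample has a column. The authors trimmed reads with cutadapt 2.7, checked them with FastQC 0.11.8, aligned them to GRCm38.p6 with HISAT2 2.1.0, assigned them to GENCODE genes with featureCounts (Subread 1.6.4), and applied the size factors and variance stabilizing transformation of DESeq2. Here that transformation was undone, which returned whole reads for 100% of the values (tolerance 0.001), and reads divided by the size factor of the sample were analysed. Since the deposited unit is log2, count tests were not used, and limma-voom on the reads served as an alternative. The rows without a symbol numbered 29140, and a table of gene identifiers gave a name to 29046.

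The 15227 genes that reached 10 normalized counts in 4 or more samples were tested on log2 values with a pseudocount of 1, using limma 3.58.1 under R 4.3.3 (lmFit, contrasts and eBayes with trend, two-sided, all 32 samples, Benjamini-Hochberg adjustment over the genes tested). Tables were made with Python 3.11.15, numpy 2.4.6 and pandas 2.3.3. The fit was also run on simulated counts without replicate sets, which cannot test how it handles the spread across sets. The steps 4 h against 2 h and 16 h against 8 h were compared with the step 8 h against 4 h in the same fit. Depth limits low genes, PCR duplicates could not be removed, and the spread across replicate sets was well above the sampling noise of the reads. Groups and replicate numbers came from sample titles. Deviations from the time point means correlated at 0.352 to 0.48 between same-numbered samples and at 0.379 to 0.475 between differently numbered samples inside a replicate set, so numbers paired samples no better than the sets did, and a fit with the replicate block was an alternative.

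The comparison and the gene lists were chosen with earlier results of these data known. Named genes were *Gata6*, the *transgene*, *Gata4*, *Sox17*, *Nanog* and *Sox2*; up to 15 rises and 15 falls with the largest differences among 4-fold calls that had a deposited symbol, groups without overlap and 100 or more normalized counts on average in the higher one (23 rises and 5 falls qualified); list members with 4-fold calls or the largest changes and textbook members; and the 3 largest changes each way on the PrE and Epi lists. Further genes, named to show a role, a level or a time course, were chosen after their values were seen. Coordinates are from GENCODE M21 on GRCm38, and promoter sequence is from RefSeq. The values of some list members are not reported here.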

Additional observations from a re-analysis of the deposited data

Results flagged for a closer look

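In groups of 4 samples, 1 sample was called apart when its gap to the nearest other sample, divided by the range of the group, exceeded the critical value of Dixon. Of 258 groups tested (the 4 h and 8 h groups of 129 named genes) 3 were called, and chance calls about 1 in 20 when the 4 samples are independent. Where the replicate sets lie apart, the gap to the nearest sample is small beside the range. The rule can then hardly call a sample, so the number called does not measure how many are apart. *Col4a1* at 4 h was at 329 normalized counts in replicate 2, the shallowest of these libraries, against 248 to 258 in the other replicates, and at 1703 to 1822 at 8 h. *Id2* at 4 h was at 222 in replicate 3, against 175 to 179 in the others, and at 75 to 91.9 at 8 h. *Pga5* at 8 h was at 1.57 in replicate 1 and at 0 in the others, a difference of at most 2 reads. None of these values changes the order of the time points for its gene.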

How the results depend on the processing

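The number of 4-fold calls depended on how low counts were treated. Against 86 rises and 38 falls, the deposited values without inversion gave 41 and 15, a mean of at least 50 normalized counts gave 40 and 6, a pseudocount of 5 gave 35 and 14, and a pseudocount of 0.5 gave 117 and 52. A 2-fold threshold gave 436 and 292. Limma-voom on reads gave 83 and 58. Replicates 1 and 2 alone gave 167 rises, and replicates 3 and 4 alone gave 65 falls and 1973 falls at any size. With 1 mean per replicate set 285 genes rose and 203 fell at any size; this fit has fewer samples. Leaving out 1 sample in turn gave 66 to 118 rises and 43 to 51 falls of 4-fold, and 1143 to 1450 rises and 947 to 1043 falls at any size. The replicate block gave 87 and 38 (1942 and 1596 at any size), TMM factors 87 and 37, and the differences from the earlier and later steps rose with the replicate block to 2026 and 1164. Of 2685 values for 129 named genes under these settings, 2564 stayed on their side of the threshold, 87 lost the call and 34 gained one, and no called value changed direction under any of the settings run. The 129 include genes without a call, which could not lose one. With the replicate block *Dnmt3l* (adjusted p = 0.036), *P4ha2* (0.0033) and T (0.043) passed the test, and none of the 3 passed on 1 mean per replicate set (0.62, 0.63 and 0.72). Of the 87 losses, 39 came with 1 mean per replicate set, namely those of *Ascl2*, *Ccnd2*, *Cdk6*, *Dio3*, *Dnmt3a*, *Dusp4*, *Egr1*, *Egr2*, *Egr3*, *Epcam*, *Fgf4*, *Fgfr2*, *Folr1*, *Fosl1*, *H19*, *Id2*, *Igf2*, *Il6ra*, *Insig1*, *Kdr*, *Klf4*, *Klk7*, *Lama1*, *Lamc1*, *Lrp2*, *Med13l*, *Notum*, *P4hb*, *Pdgfa*, *Pdgfc*, *Pdgfrb*, *Pga5*, *Plk2*, *Slc3a2*, *Slc7a5*, *Sparc*, *Tcl1*, *Tfrc* and *Tgm3*; among them the adjusted p was 0.32 for *Lrp2*, 0.29 for *Fgfr2*, 0.28 for *Dusp4*, 0.26 for *Pdgfrb*, 0.20 for *Egr1* and 0.14 for *Dnmt3a*. The causes of these shifts were not tested. Genes at 3 reads or fewer in a group limit the rest: 20 of the 86 rises and 6 of the 38 falls had such a group.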
